A study of Gallus gallus with 15 samples.

Results

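The protein-coding genes of the mitochondrial ribosome were examined in the liver of 5 chicken breeds. A gene was taken as a member if an array feature carried exactly 1 gene symbol that began with MRPL or MRPS followed by a digit. These symbols stand for mitochondrial ribosomal proteins first assigned to the large and to the small subunit. The rule found 62 features for 58 genes, 35 of them MRPL and 23 MRPS, among 11528 genes that could be named. For 4 genes read by 2 features, the feature with the higher mean over all birds stood for the gene. No filter on low values was applied, so all 58 members were tested.

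The birds were 15 males, 13 weeks old, each with 1 array of liver RNA, and every breed had 3 birds. White Leghorn, an egg-laying breed, was the control, and the other breeds were the Korean native breeds Yeonsan Ogye, Hyunin Black, Hwangbong and Hoengseong Yakdak. All chicks hatched from eggs of local farms, and were raised on 1 experimental farm with free access to feed. The labels do not say which local farm each breed came from, so breed and farm of origin cannot be told apart. Values are log2 expression values, on which a difference of 1 is a 2-fold change. The array medians lay between 6.12 and 6.20 and correlations between arrays ran from 0.977 to 0.991. Liver markers were high in every breed, with mean values of 12 hepatocyte genes between 12.68 and 12.84 in all birds.

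Mitochondria keep ribosomes of their own, which make the few proteins encoded in mitochondrial DNA, all of them parts of the respiratory chain and the ATP synthase. The ribosomal RNA comes from the mitochondrial genome, whereas every protein of these ribosomes is encoded in the nucleus, made in the cytosol and imported. Many of the proteins have a counterpart in bacterial ribosomes, and the others were added during the evolution of mitochondria. Liver is rich in mitochondria, which carry out fatty acid oxidation and parts of urate and glucose synthesis in birds.

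By these roles, 20 members were large-subunit proteins conserved in bacteria, 17 were large-subunit proteins specific to mitochondria, 11 were small-subunit proteins conserved in bacteria, and 9 were small-subunit proteins specific to mitochondria. MRPS30 and MRPS18A carry small-subunit symbols but belong to the large subunit, and they were counted there. MRPS36 stands outside the classes, because its mammalian protein is a part of the 2-oxoglutarate dehydrogenase complex. A current list of chicken genes in RefSeq held 73 MRPL and MRPS symbols, and the 15 that were no members, such as MRPL12, MRPL20, MRPS6 and MRPS15, were not analysed here.

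Across the 5 breeds the means of the mitochondrial ribosomal protein genes lay about as far apart as those of array features in general. The median range between the highest and the lowest breed mean was 0.26 for the members and 0.30 for all 18308 features, and the median SD between birds of a breed was 0.15 for the members and 0.19 for all features. White Leghorn had the highest breed mean for 16 members and the lowest for 11. Hyunin Black had the highest for 18 and the lowest for 8, Hoengseong Yakdak the highest for 12 and the lowest for 16, Hwangbong the highest for 8 and the lowest for 11, and Yeonsan Ogye the highest for 4 and the lowest for 12. No breed therefore held the extreme position for most of the genes.

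**Figure D1:**
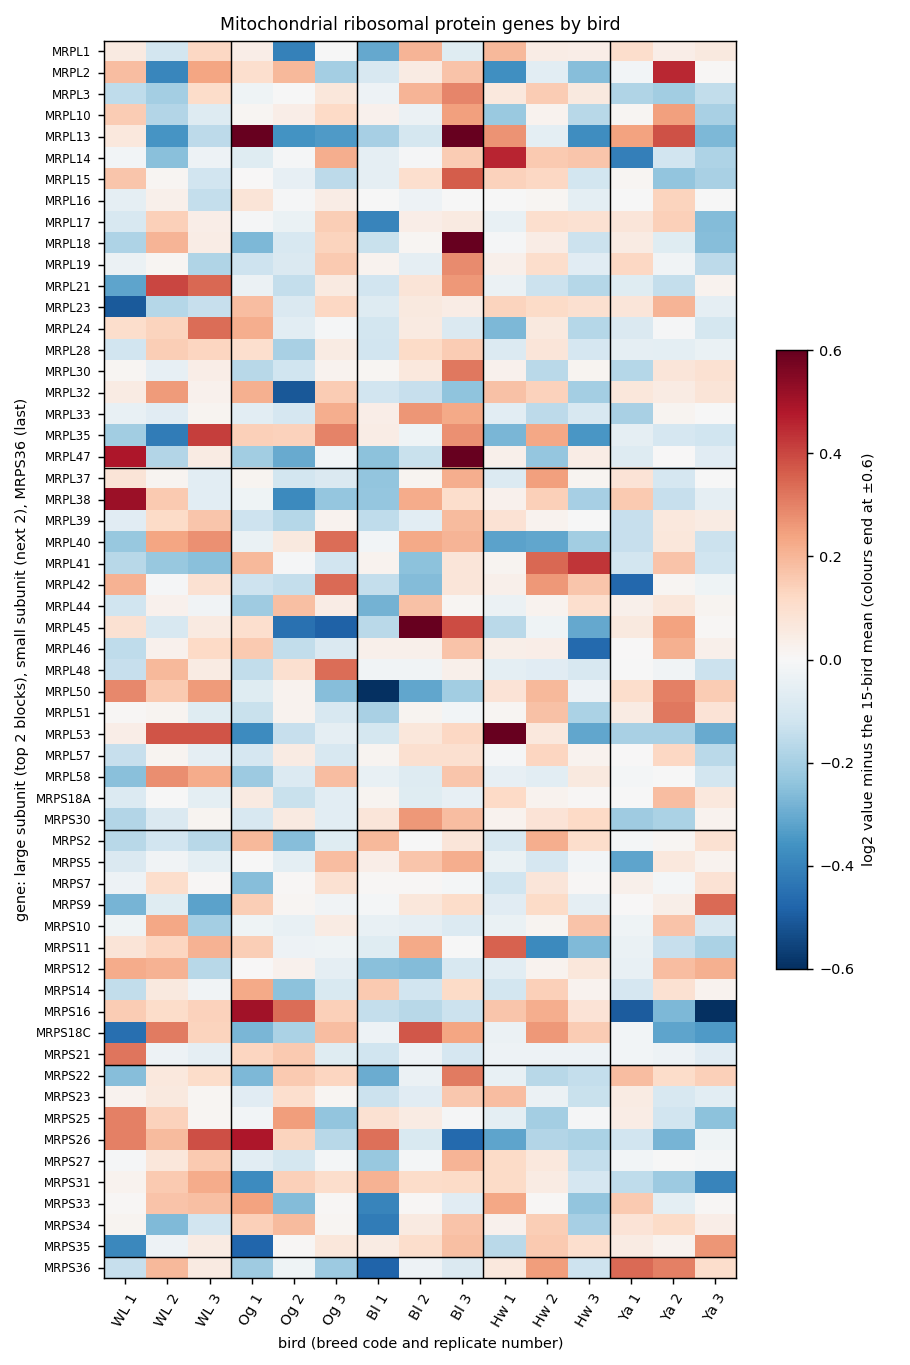
Heat map of the 58 genes (rows, in blocks by subunit and by conservation in bacteria) in the 15 birds (columns; WL White Leghorn, Og Yeonsan Ogye, Bl Hyunin Black, Hw Hwangbong, Ya Hoengseong Yakdak), coloured by log2 value minus the mean of the 15 birds. In many rows the 3 birds of at least 1 breed share a colour. How many rows would show this without any breed difference was not tested. MRPS16 is blue in the 3 Hoengseong Yakdak birds and the 3 Hyunin Black birds, and red in all others.

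A moderated F test in limma asked for any difference among the breeds, with Benjamini-Hochberg adjustment over all features and a call at an adjusted p under 0.05. It called 1 of the 58 members, MRPS16, while 1.6% of all features were called. Without adjustment, 6 members had a p under 0.05, against 16.1% of all features. By class, the single call lay among the 11 conserved small-subunit proteins, and none of the 20 conserved and 17 mitochondria-specific large-subunit proteins or of the 9 mitochondria-specific small-subunit proteins was called. The unadjusted counts in these classes were 1, 2, 2 and 0 in the same order.

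MRPS16, the counterpart of bacterial protein S16 in the small subunit, was lowest in Hoengseong Yakdak. In humans, loss of this protein impairs mitochondrial translation. The White Leghorn birds had values of 8.35, 8.31 and 8.33, and the Hwangbong birds had 8.36, 8.41 and 8.28. The Yeonsan Ogye birds had 8.70, 8.53 and 8.34. The Hyunin Black birds had 8.06, 8.03 and 8.07, and the Hoengseong Yakdak birds 7.70, 7.93 and 7.56. All 3 Hoengseong Yakdak birds lay below the other 12 birds, and the 3 Hyunin Black birds lay between them and the remaining 9.

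The F value of MRPS16 was 15.4 (limma, adjusted p = 0.0122). Hoengseong Yakdak had 1.52-fold less MRPS16 signal than White Leghorn, a log2 difference of -0.60 ± 0.11 (SE, 95% interval from -0.84 to -0.36, limma adjusted p = 0.0302), in a comparison where 0.552% of all features passed. It had 1.54-fold less than Hwangbong, with a difference of -0.62 ± 0.11 (limma adjusted p = 0.013, all features 1.46%). Against Yeonsan Ogye it had 1.73-fold less, with a difference of -0.79 ± 0.11 (limma adjusted p = 0.00821, all features 0.317%). The difference from Hyunin Black was -0.32 ± 0.11 and did not pass (limma adjusted p = 0.272, 95% interval from -0.57 to -0.08, all features 0.295%).

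The order of the MRPS16 means was thus Hoengseong Yakdak with 7.73 ± 0.18 (SD, n = 3), Hyunin Black with 8.05 ± 0.02, White Leghorn with 8.33 ± 0.02, Hwangbong with 8.35 ± 0.07 and Yeonsan Ogye with 8.52 ± 0.18. None of the 4 pairs of neighbours in this order differed past the threshold. Hyunin Black differed from White Leghorn by -0.28 ± 0.11 (limma adjusted p = 0.357) and from Yeonsan Ogye by -0.47 ± 0.11 (adjusted p = 0.201), and Hwangbong differed from Hyunin Black by 0.30 ± 0.11 (adjusted p = 0.417). The call against White Leghorn was lost when White Leghorn bird 1, 2 or 3 or Hoengseong Yakdak bird 1 or 3 was left out, with adjusted p from 0.0751 to 0.110. The call against Hwangbong was lost without Hwangbong bird 2 (adjusted p = 0.0598) or Hoengseong Yakdak bird 3 (adjusted p = 0.0554), whereas the call against Yeonsan Ogye and the F test passed without any 1 bird.

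**Figure D2:**
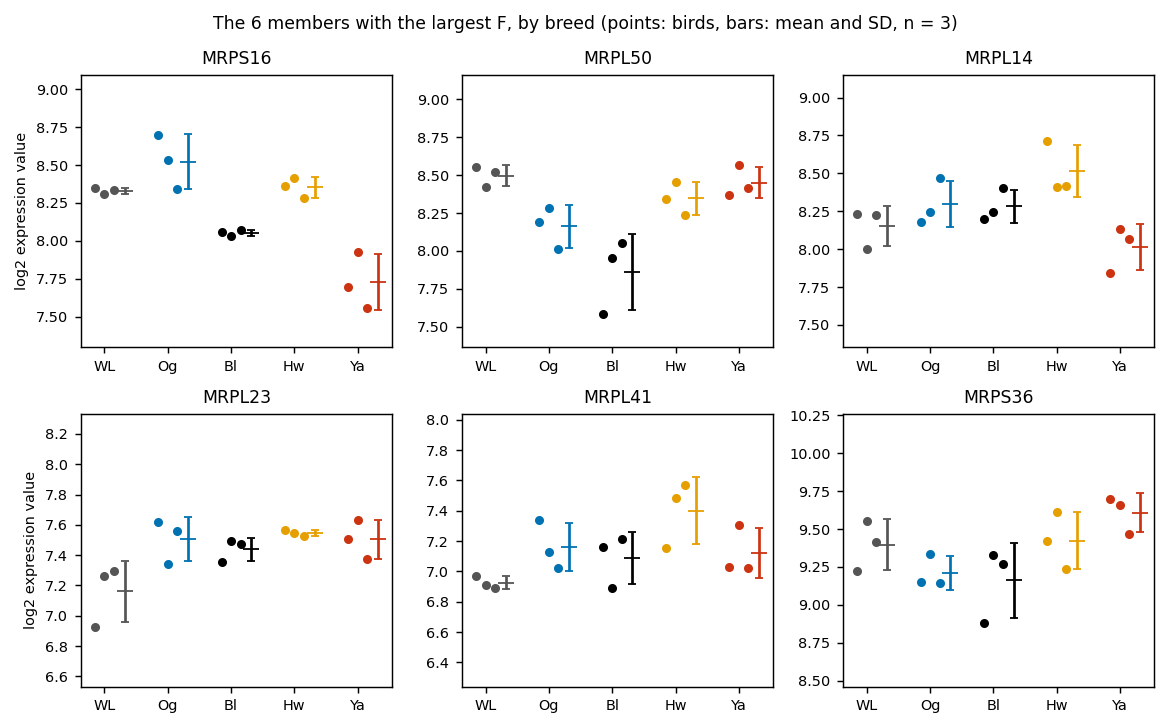
Log2 expression values of the 6 members with the largest F (1 panel per gene, each with a vertical axis of the same length around the gene's own mean); points are birds, bars are the mean and SD of 3 birds per breed. In the MRPS16 panel the Hoengseong Yakdak birds sit between 7.56 and 7.93, below every other bird, and in the MRPL23 panel the 3 White Leghorn birds sit lowest.

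The genes that flank MRPS16 in the RefSeq annotation, chosen after the MRPS16 values were seen, passed neither the F test nor any pair of breeds. SDHB, a subunit of succinate dehydrogenase, had breed means between 9.75 and 9.89 and differed between Hoengseong Yakdak and White Leghorn by -0.02 ± 0.09 (F test in limma, adjusted p = 0.774). SLC45A1, a sugar transporter gene, differed by 0.17 ± 0.12 in the same comparison (F test in limma, adjusted p = 0.232). Whether the breeds differ in DNA sequence under the MRPS16 probes was not tested.

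Hepatocyte and other cell markers are given beside the MRPS16 result. The mean of the 12 hepatocyte genes was between 12.68 and 12.73 in the Hoengseong Yakdak birds and between 12.75 and 12.80 in the White Leghorn birds, and none of the 12 passed the F test. The mean of 9 genes used as markers of mitochondrial mass, such as the outer-membrane channel gene VDAC1 and the import receptor gene TOMM22, was between 9.04 and 9.05 in Hoengseong Yakdak and between 8.98 and 9.14 in White Leghorn. The mean of 7 macrophage genes was between 9.55 and 9.66 in Hoengseong Yakdak and between 9.57 and 9.64 in White Leghorn. The mean of 8 red blood cell genes was higher in all 3 Hoengseong Yakdak birds, 6.39 to 6.68, than in the White Leghorn birds, 6.18 to 6.26, and none of the 8 passed the F test. For 5 bile duct genes the ranges were 5.88 to 6.34 and 5.92 to 6.18. No macrophage gene passed the F test, and 1 bile duct gene, SPP1, did (limma adjusted p = 0.0441). Hwangbong and Yeonsan Ogye had hepatocyte means of 12.69 to 12.75 and 12.75 to 12.77. Their red blood cell means, 6.43 to 6.58 and 6.43 to 6.81, overlapped with those of Hoengseong Yakdak. Their macrophage means were 9.68 to 9.83, all above those of Hoengseong Yakdak, and 9.38 to 9.67. Their bile duct means were 5.63 to 5.96 and 5.85 to 6.07. All 5 bile duct genes had a higher mean in Hoengseong Yakdak than in Hwangbong, and 1 passed in that pair (all features 1.46%). Relative to White Leghorn, Hoengseong Yakdak had the lower hepatocyte mean and the higher red blood cell mean. The part of these and other marker differences in the MRPS16 differences was not tested. In whole liver fewer cells of a type and less RNA per cell cannot be told apart.

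MRPL50, a mitochondria-specific protein of the large subunit, had the second largest F, 8.30, which did not pass (limma, adjusted p = 0.0612). Its values were 8.55, 8.42 and 8.52 in White Leghorn, 8.37, 8.57 and 8.42 in Hoengseong Yakdak and 8.35, 8.46 and 8.23 in Hwangbong. They were 8.19, 8.29 and 8.01 in Yeonsan Ogye and 7.58, 7.95 and 8.05 in Hyunin Black. The Hyunin Black birds lay below all White Leghorn, Hoengseong Yakdak and Hwangbong birds, and overlapped with the Yeonsan Ogye birds.

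The MRPL50 difference between Hyunin Black and White Leghorn was -0.64 ± 0.13, with a 95% interval from -0.91 to -0.36 (limma adjusted p = 0.0705). Hoengseong Yakdak differed from Hyunin Black by 0.59 ± 0.13 (limma adjusted p = 0.0735). MRPL50 passed the F test when only the 12205 features of highest mean were kept (limma adjusted p = 0.0413) and when variances were moderated with trend and robust estimation (adjusted p = 0.043).

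MRPL14, the counterpart of bacterial L14 at the face of the large subunit that meets the small one, had an F of 4.36 (limma, adjusted p = 0.204). Its values were 8.71, 8.41 and 8.42 in Hwangbong and 7.84, 8.14 and 8.06 in Hoengseong Yakdak, with no overlap between these breeds. The other values were 8.23, 8.0 and 8.22 in White Leghorn, 8.18, 8.25 and 8.47 in Yeonsan Ogye and 8.20, 8.24 and 8.40 in Hyunin Black. The difference between Hoengseong Yakdak and Hwangbong, -0.50 ± 0.13, did not pass (limma adjusted p = 0.071).

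MRPL23, the counterpart of bacterial L23 at the exit of the peptide tunnel, was lowest in White Leghorn. The White Leghorn birds had values of 6.93, 7.26 and 7.29, and the 12 native birds lay between 7.34 and 7.63, all above them. The native breeds differed from White Leghorn by 0.35 in Yeonsan Ogye (adjusted p = 0.372), 0.28 in Hyunin Black (adjusted p = 0.378), 0.39 in Hwangbong (adjusted p = 0.169) and 0.34 in Hoengseong Yakdak (adjusted p = 0.22), each with an SE of 0.12, and none of these limma tests passed. The F value was 3.56 (limma, adjusted p = 0.267). These comparisons share the White Leghorn birds, of which bird 1 had the lowest value. Across 8 genes of red blood cells the mean was 6.18 to 6.26 in White Leghorn and 6.39 to 6.85 in the native birds, a split of the same kind, and its part in the MRPL23 values was not tested.

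Among mitochondria-specific proteins of the large subunit, MRPL41 was highest in Hwangbong, with values of 7.15, 7.48 and 7.57, and lowest in White Leghorn, with 6.97, 6.91 and 6.89. The values were 7.34, 7.13 and 7.02 in Yeonsan Ogye, 7.16, 6.89 and 7.21 in Hyunin Black and 7.03, 7.31 and 7.02 in Hoengseong Yakdak. All of these breeds overlapped with Hwangbong, and Hyunin Black also overlapped with White Leghorn. The difference between Hwangbong and White Leghorn was 0.48 ± 0.14 (limma adjusted p = 0.141). MRPL40 had the opposite order in that pair, with breed means of 8.09 in Hwangbong and 8.46 in White Leghorn and a difference of -0.37 ± 0.14 (limma adjusted p = 0.275). Its Hwangbong birds overlapped with White Leghorn bird 1.

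MRPS36 was highest in Hoengseong Yakdak, with values of 9.70, 9.66 and 9.46, and these birds did not overlap with Hyunin Black, with 8.88, 9.33 and 9.27, or Yeonsan Ogye, with 9.15, 9.34 and 9.14. The differences were 0.45 ± 0.14 (limma adjusted p = 0.219) and 0.40 (adjusted p = 0.309). MRPL3, the counterpart of bacterial L3 near the peptidyl transferase centre, had breed means from 8.94 in Hoengseong Yakdak to 9.28 in Hyunin Black. MRPS30, a mitochondria-specific protein of the large subunit, ran from 7.17 to 7.47 between the same breeds. MRPS31, a mitochondria-specific protein of the small subunit, ran from 6.26 in Hoengseong Yakdak to 6.66 in Hyunin Black. The adjusted F p-values of these 3 genes in limma lay between 0.319 and 0.329.

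At the other end, MRPS23 of the small subunit had the smallest F, 0.107. Its breed means were between 7.21 and 7.28. MRPL44, a large-subunit protein with the fold of a ribonuclease, had an F of 0.154 and breed means between 7.51 and 7.59. For MRPS14, the counterpart of bacterial S14, the F was 0.175 and the breed means were between 7.67 and 7.76. In all 3 genes the breed means lay closer together than the birds of the most variable breed.

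Set against White Leghorn, the members were spread around 0 in every native breed. The median difference was -0.02 in Yeonsan Ogye, with 24 members above 0 and 34 below, and the median over all features was -0.01. In Hyunin Black the median was 0.01, with 31 above and 27 below. In Hwangbong it was -0.04, with 27 above and 31 below. In Hoengseong Yakdak it was -0.04, with 24 above and 34 below. Over all features the median was -0.001 in Hyunin Black, -0.012 in Hwangbong and -0.005 in Hoengseong Yakdak. Of the 18308 features, 8794 lay above 0 in Yeonsan Ogye, 9126 in Hyunin Black, 8711 in Hwangbong and 8974 in Hoengseong Yakdak. The members' median moved by more than the spread between birds only when Hyunin Black bird 3 was left out, to -0.05, or Hwangbong bird 3, to 0.02.

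**Figure D3:**
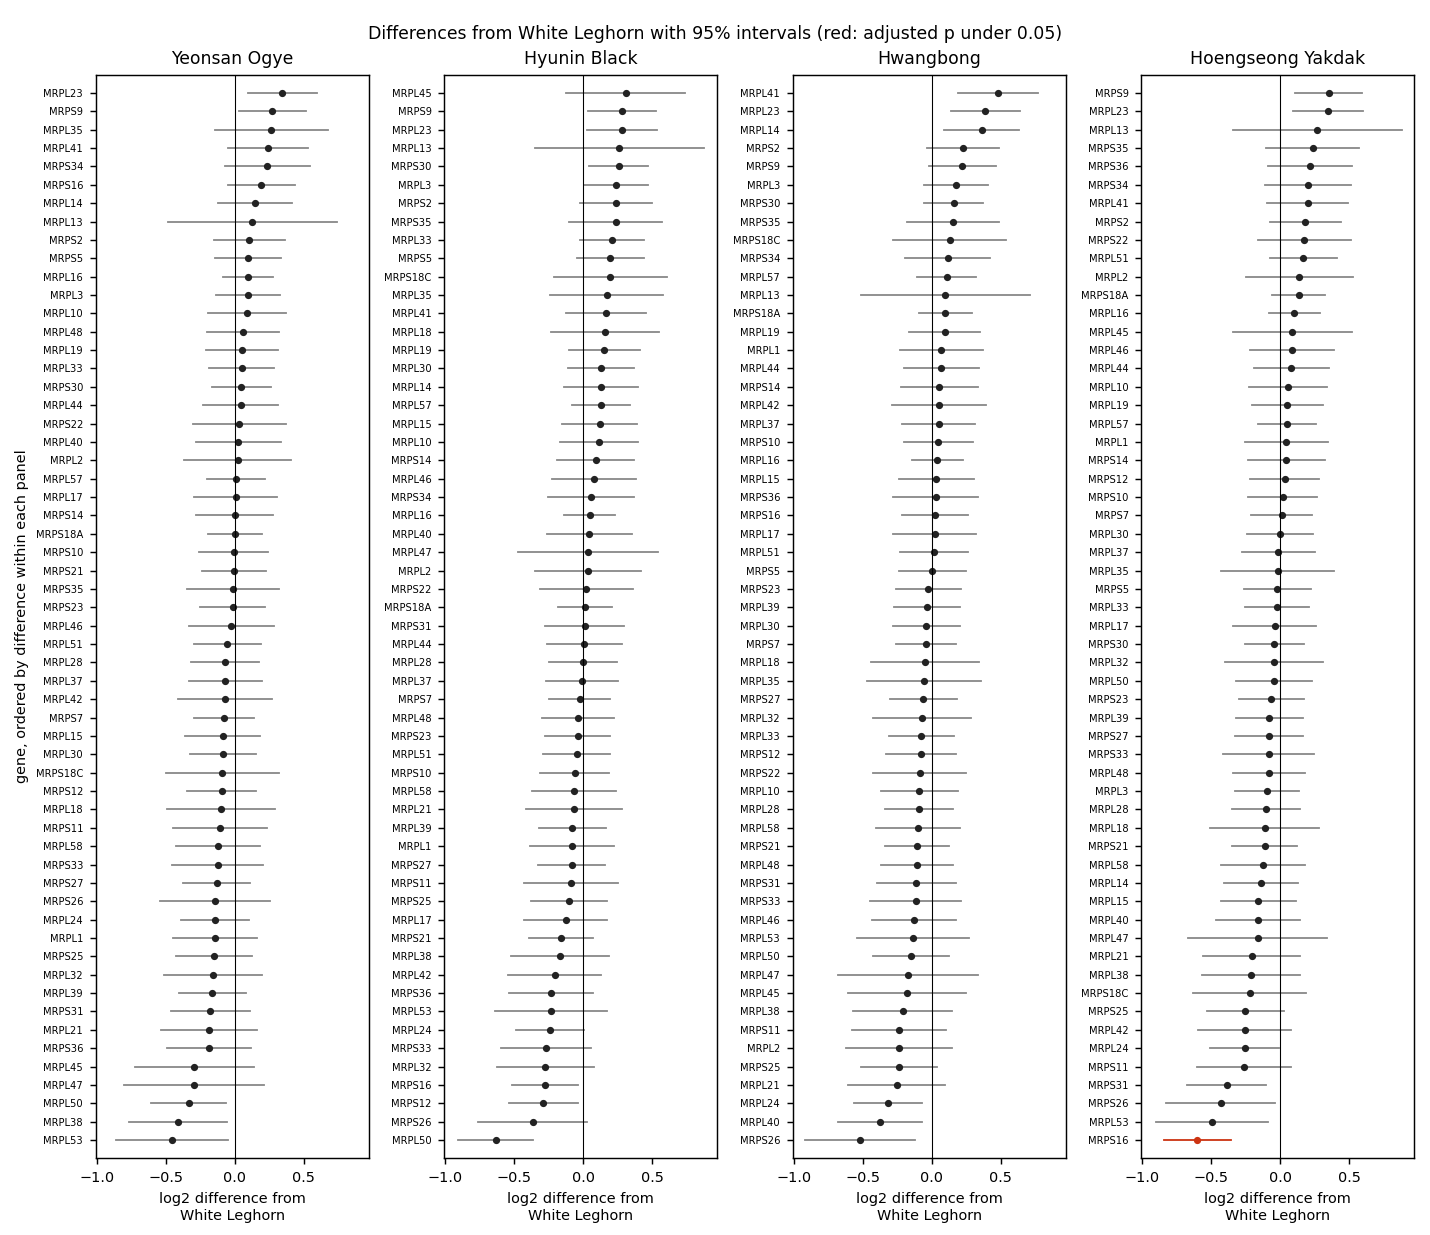
Log2 difference of each native breed from White Leghorn (horizontal axis) for the 58 genes (vertical axis, ordered within each panel), with 95% intervals from the model; red marks an adjusted p under 0.05. The points run through 0 in each panel, and the single red point is MRPS16 in the Hoengseong Yakdak panel at -0.60.

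In Yeonsan Ogye no member passed against White Leghorn, where 0.191% of all features passed, and 5 members had an unadjusted p under 0.05, against 9.14% of features. By t, the lowest were MRPL50 with -0.33, MRPL38 with -0.41 ± 0.17 and MRPL53 with -0.46 ± 0.19, mitochondria-specific proteins of the large subunit. The highest by t were MRPL23, MRPS9, the counterpart of bacterial S9, with 0.27 ± 0.11, and MRPL41 with 0.24. Their limma adjusted p-values were at least 0.372.

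In Hyunin Black no member passed either, where 0.164% of all features passed, and 7 had an unadjusted p under 0.05, against 11.7% of features. By t, the lowest after MRPL50 were MRPS12, the counterpart of bacterial S12 in the decoding centre, with -0.29 ± 0.12 (limma adjusted p = 0.357), and MRPS16. By t, the highest were MRPS30 with 0.26 ± 0.10 (limma adjusted p = 0.333), MRPS9 with 0.28 ± 0.11 (adjusted p = 0.357) and MRPL23. By size alone, MRPL45 with 0.31 and MRPS26 with -0.37 exceeded these but varied more between birds (limma adjusted p = 0.58 and 0.455).

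In Hwangbong no member passed, where 0.579% of all features passed, and 6 had an unadjusted p under 0.05, against 12.9% of features. MRPL41, MRPL23 and MRPL14 were the highest by t, the last with 0.36 ± 0.13 (limma adjusted p = 0.231). On the low side by t, MRPS26, a mitochondria-specific protein of the small subunit, differed by -0.52 ± 0.19 (limma adjusted p = 0.241), and MRPL24, the counterpart of bacterial L24, by -0.32 ± 0.11 (adjusted p = 0.246), with MRPL40 next. The Hwangbong birds had MRPS26 values of 7.53, 7.67 and 7.66 and the White Leghorn birds 8.15, 8.04 and 8.24, without overlap.

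In Hoengseong Yakdak MRPS16 was the 1 member called, where 0.552% of all features passed, and 7 members had an unadjusted p under 0.05, against 12.8% of features. Next to it by t, MRPS31 differed by -0.39 ± 0.13 (limma adjusted p = 0.224) and MRPL53 by -0.50 ± 0.19 (adjusted p = 0.28). Highest by t were MRPS9 with 0.35 ± 0.11 (limma adjusted p = 0.202), MRPL23, and MRPS2, the counterpart of bacterial S2, with 0.18. MRPS9 was 6.72, 6.93 and 6.68 in the White Leghorn birds and 7.0, 7.03 and 7.34 in the Hoengseong Yakdak birds.

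The size of the differences that these data allow can be read from the 95% intervals of the model. The interval against White Leghorn lay within a 2-fold change in either direction for all 58 members in each of the 4 native breeds, and for 93.0% to 93.8% of all features. Within a 1.5-fold change it lay for 50 members in Yeonsan Ogye, 50 in Hyunin Black, 48 in Hwangbong and 47 in Hoengseong Yakdak. In the same order these were 86.2%, 86.2%, 82.8% and 81.0% of the members, beside 71.9%, 69.1%, 68.4% and 68.6% of all features. For the remaining members a difference above 1.5-fold was not excluded at 3 birds per breed. Each interval holds for 1 gene and 1 comparison, not jointly, and for the feature with the higher mean. The second MRPL35 feature, which was not counted, differed by -0.85 ± 0.24 in Yeonsan Ogye, and its RNA was not shown to be above background. MRPL13 was counted, although its RNA was not shown to be above background, so its interval does not bound its RNA.

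Between native breeds, MRPS16 gave both calls among the 58 members in 6 pairs, those of Hoengseong Yakdak with Hwangbong (all features 1.46%) and with Yeonsan Ogye (0.317%). None passed between Hwangbong and Hyunin Black (all features 0.371%), Hwangbong and Yeonsan Ogye (0.317%), Hoengseong Yakdak and Hyunin Black (0.295%), or Hyunin Black and Yeonsan Ogye (0.0492%). Unadjusted p-values under 0.05 were found for 10 members between Hoengseong Yakdak and Hyunin Black, against 11.1% of features, and for 6 between Hwangbong and Hyunin Black, against 9.03%. There were 4 between Hoengseong Yakdak and Yeonsan Ogye (all features 10.6%), 3 between Hoengseong Yakdak and Hwangbong (13.2%), 3 between Hyunin Black and Yeonsan Ogye (8.05%) and 1 between Hwangbong and Yeonsan Ogye (10.7%).

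MRPL45, which in mammals binds the ribosome to the inner mitochondrial membrane, had the largest difference between Hyunin Black and Yeonsan Ogye, 0.60 ± 0.20, and did not pass (limma adjusted p = 0.438). Its values were 7.96, 8.86 and 8.52 in Hyunin Black and 8.23, 7.68 and 7.64 in Yeonsan Ogye, so the birds overlapped. MRPL40 was the single member with an unadjusted p under 0.05 between Hwangbong and Yeonsan Ogye, with a difference of -0.40 ± 0.14 (limma adjusted p = 0.294).

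The birds with the highest and the lowest level of the whole set both belonged to Hyunin Black. In Hyunin Black bird 3, 41 of 58 members lay above their mean over the 15 birds, with a median deviation of 0.12, whereas in Hyunin Black bird 1 it was 18 members with a median of -0.08. The medians over all features in these birds were -0.01 and 0.02, and 47.4% and 56.4% of all features lay above their mean. In the other 13 birds the median deviation of the members lay between -0.06 and 0.05. In Hwangbong bird 2, 41 members also lay above their mean, with a median of 0.05, beside 47.8% of all features. Hyunin Black bird 3 had the highest median of all birds in both subunits, 0.17 over the 37 large-subunit genes, of which 30 lay above their mean, and 0.09 over the 20 small-subunit genes, of which 11 did, and the difference between the subunits was not tested. The 49 genes of the respiratory chain and ATP synthase had medians of 0.11 in Hyunin Black bird 3, with 39 above their mean, and -0.07 in bird 1, with 14 above. The part of a bird's general level of mitochondrial genes in the members' values was not tested.

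**Figure D4:**
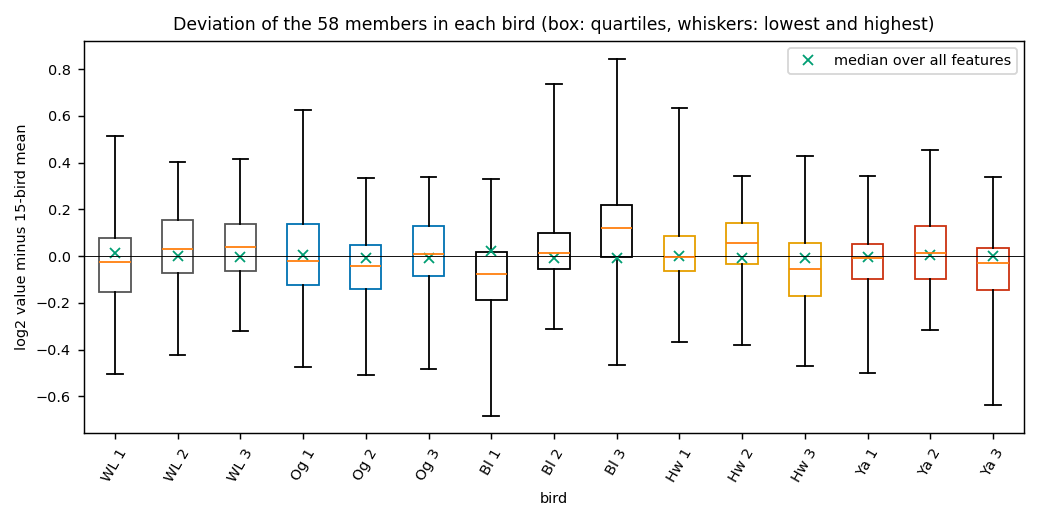
Deviation of the 58 members from their 15-bird means in each bird (log2); boxes are quartiles with the median, whiskers reach the lowest and highest member, and crosses are the median over all features. Hyunin Black birds 1 and 3 hold the lowest and the highest median, -0.08 and 0.12, and every other box has its median within 0.06 of 0.

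The 4 genes with a second feature allow a check of the measurement. For MRPL28, MRPL45 and MRPS26 both features had means above 7, and neither feature of any of these genes passed the F test (limma adjusted p from 0.361 to 0.923). On the second MRPS26 feature the 3 White Leghorn birds, with 7.37, 7.30 and 7.24, lay above all 12 native birds, whereas on the first feature native birds overlapped with them. The second feature of MRPL35 had a mean of 4.15 and was lowest in Yeonsan Ogye, with 3.49, 3.70 and 3.36. The first feature, with a mean of 6.60, had its highest breed mean in Yeonsan Ogye, 6.79. Yeonsan Ogye differed from White Leghorn by 0.26 ± 0.19 on the first feature and by -0.85 ± 0.24 on the second (limma adjusted p = 0.751 and 0.227). For MRPL35 the features thus pointed in opposite directions in this pair. The second was not shown to be above background, and the reason for the difference was not tested. Neither feature passed the F test in limma (adjusted p = 0.163 for the second and adjusted p = 0.71 for the first).

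**Figure D5:**
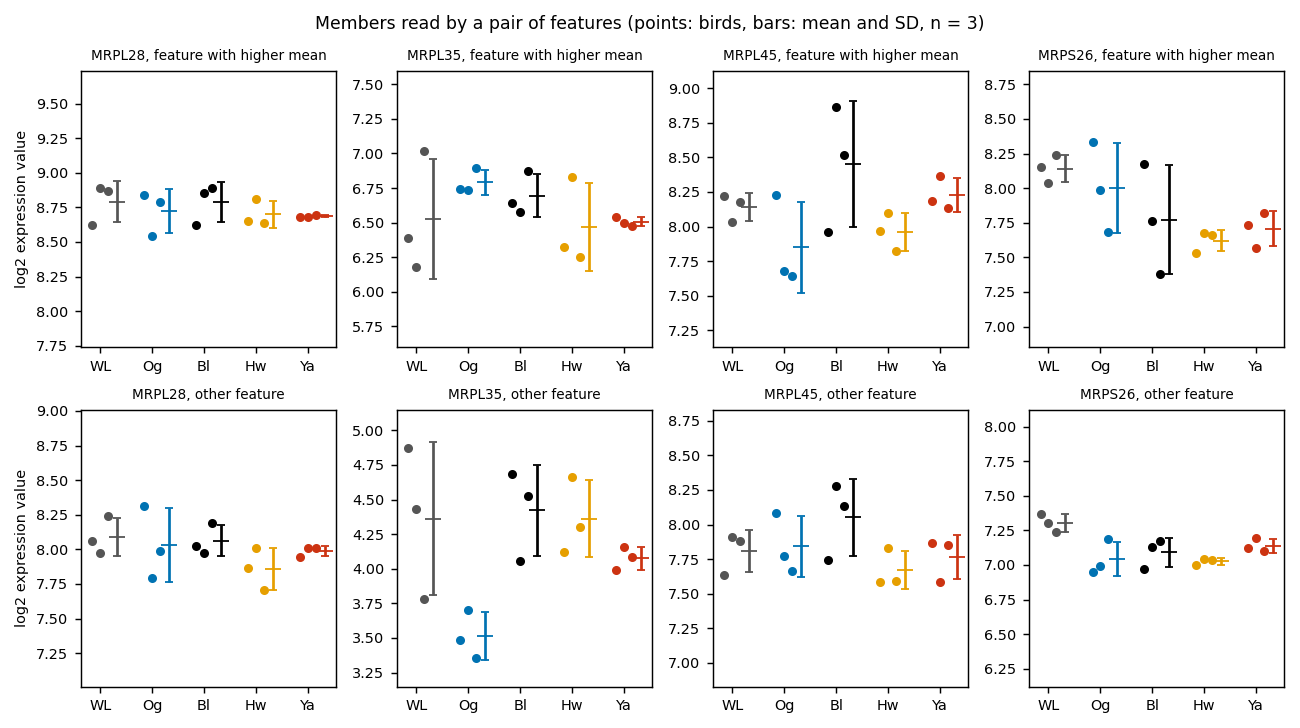
Log2 values of the 4 genes read by 2 features (columns), with the feature of higher mean above and the other feature below; points are birds, bars are the mean and SD of 3 birds per breed, and every vertical axis spans the same length around its own mean. White Leghorn is highest on the lower MRPS26 panel, and Yeonsan Ogye is lowest on the lower MRPL35 panel.

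Low signal touched 1 other gene. HINTW lies on the female-specific W chromosome, so its values in these males, between 3.95 and 4.64, give the signal of 1 feature whose RNA should be absent. They mark no floor of the scale, since the second MRPL35 feature went lower in Yeonsan Ogye. The bird values of that feature, between 3.36 and 4.88, overlap with those of HINTW, so its RNA was not shown to be above background. MRPL13 had bird values between 4.37 and 5.38, which overlap with those of HINTW, so its RNA was not shown to be above background. The other 57 members had means of 6 or more, up to 9.36 for MRPS36, although values of different features do not rank genes by abundance.

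No measured gene on the lists of other parts of mitochondrial translation passed the F test. The lists were covered in part, with 3 of 7 symbols measured for ribosomal proteins under other symbols and 8 of 16 for translation factors. Measured were also 16 of 24 for synthetases, 17 of 30 for assembly factors, 19 of 28 for DNA upkeep, transcription and RNA handling, and 7 of 10 for nuclear regulators. Mitochondrial ribosomal proteins that go by other symbols were measured for 3 genes, with adjusted p-values in limma of 0.779 for DAP3, 0.939 for AURKAIP1 and 0.953 for PTCD3, and none passed. None of 8 translation factors passed, where MTRF1, a release factor, and the recycling factor GFM2 had the smallest p (limma adjusted p = 0.334 and 0.381). None of 16 mitochondrial aminoacyl-tRNA synthetases passed, where FARS2, which charges the phenylalanine tRNA, and CARS2, which charges the cysteine tRNA, came first (limma adjusted p = 0.0902 and 0.46). FARS2 differed between Hoengseong Yakdak and White Leghorn by 0.43 ± 0.11.

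None of 17 genes listed as assembly factors passed, where METTL5 and the methyltransferase MRM1 came first (limma adjusted p = 0.234 and 0.274). METTL5 was on this list although in mammals it modifies cytosolic ribosomal RNA. Among 19 genes of mitochondrial DNA upkeep, transcription and RNA handling none passed, where POLG2, the accessory subunit of the mitochondrial DNA polymerase, and MTERF2 came first (limma adjusted p = 0.109 and 0.222). None of 7 nuclear regulators of mitochondrial genes passed, with MYC at 0.19 and GABPB1 at 0.474 in limma.

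Of 49 measured nuclear genes (89 symbols listed) for the respiratory chain and ATP synthase, whose other subunits the mitochondrial ribosome makes, 2 passed the F test (4.08%, all features 1.6%). These were NDUFA8, a subunit of complex I, and ATP5E, the epsilon subunit of the ATP synthase, both named after their values were seen. NDUFA8 was lower in Hoengseong Yakdak than in White Leghorn by -1.03 (limma adjusted p = 0.0204, all features 0.552%), and ATP5E differed in that pair by -0.07 (adjusted p = 0.915). Calls among the 49 genes were not confined to that pair. There was 1 for Yeonsan Ogye (all features 0.191%) and 1 for Hwangbong (0.579%) against White Leghorn. Yeonsan Ogye gave 2 with Hwangbong (0.317%) and 2 with Hoengseong Yakdak (0.317%), and the remaining pairs gave 0. Cytosolic ribosomal protein genes, 53 in number, had a median range of breed means of 0.24. The F test called 2 of them, 3.77% (all features 1.6%), RPS12 and RPS29, which were named after their values were seen (limma adjusted p = 0.0199 and 0.0484). RPS12 was also lower in Hoengseong Yakdak than in Hwangbong, by -0.64 ± 0.10 (limma adjusted p = 0.00643), and than in Yeonsan Ogye, by -0.65 ± 0.10 (adjusted p = 0.0181). The median difference of the cytosolic set between Hoengseong Yakdak and White Leghorn was -0.19, with 4 of 53 above 0 and 0 called in that pair, beside -0.04 and 24 of 58 for the mitochondrial set, and the difference between the sets was not tested.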

How the data were processed

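Liver RNA of 15 birds was labelled as single-stranded cDNA and hybridised to an Affymetrix chicken gene array. Per the submitters' processing notes, the authors used RMA and Affymetrix Expression Console 1.3.1 to make the deposited log2 values. The summarization level is not given in the sources used here. RMA normalises the arrays to each other, so a shift common to all genes of a bird is removed. All 18308 features were used, of which 12300 carry 1 symbol in the platform annotation, 256 several and 5752 none. The feature annotated to MRPL12 and to SLC25A10 was left out. Of the 58 members, 57 matched a current chicken symbol through the gene ID and MRPL35 through its symbol.

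A single linear model held the 5 breed means and was fitted by limma 3.58.1 (R 4.3.3) to the 15 arrays (10 residual and 3.89 prior degrees of freedom), with an F test and 10 pairs of breeds, two-sided, with Benjamini-Hochberg adjustment over all features. The number of arrays limits the precision. The labels call the 3 arrays of a breed biological replicates and give no batch. The procedure was tested on simulated data for Hwangbong against White Leghorn with 18308 features, and recovered 24.4% of features changed by 0.5 and 79.2% of those changed by 1. In the simulation 200 features were changed, in Hwangbong alone, and noise was drawn independently for each feature. Variation that features of a bird share was not simulated, so these rates can differ from those in the real arrays.

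Members and gene lists were chosen with earlier results of these data known. Named are the members passing any test, the 10 with the largest and the 3 with the smallest F, the 3 highest and 3 lowest by t against White Leghorn, and, in lists without a call, the 2 genes with the smallest F p. MRPL45, MRPL13 and the second features were described after their values were seen. Alternatives were other variance moderation, array weights, normalisation and centring, a filter on low features, the mean of a gene's features, only the 6 arrays compared, the replicate number as a block, and leaving out each array. No sequence was used.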

Additional observations from a re-analysis of the deposited data

How the results depend on the processing

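Of the results on member counts, those for Yeonsan Ogye and Hwangbong against White Leghorn stayed at 0 in all alternatives. The count of members passing the F test was 2 instead of 1, MRPL50 being added, with only the 12205 features of highest mean and with trend and robust moderation. MRPL50 also passed between Hyunin Black and White Leghorn with those 12205 features (count 1 instead of 0, limma adjusted p = 0.0499). With only the 6 arrays compared, the counts for Hoengseong Yakdak against White Leghorn and for the native pairs were 0, where MRPS16 had limma adjusted p-values of 0.142 against White Leghorn, 0.168 against Yeonsan Ogye and 0.0673 against Hwangbong; this fit has fewer arrays to estimate the spread, and no F test was run in it. Leaving out 1 array at a time gave 0 to 1 calls for Hoengseong Yakdak against White Leghorn and 1 to 2 for the native pairs. MRPS16 passed the F test in the 7 alternatives that give it (limma adjusted p from 0.0069 to 0.0158) and in all 15 fits without 1 array (from 0.00928 to 0.043). The labels do not say whether birds of the same replicate number belong together. Deviations from the breed means correlated over 0.1 in 8 of 30 same-numbered pairs, with a range from -0.086 to 0.239. Between White Leghorn and Yeonsan Ogye these correlations were 0.239, 0.095 and 0.208. Between birds of different breed and different number the correlations ran from -0.23 to 0.16. Of 15 birds, 8 matched best with a bird of their own number. How many would do so without a shared effect was not computed, and whether same-numbered birds share an effect was not tested. With the replicate block the F test called 1 member, and no member count changed. MRPS16 differed from White Leghorn in Hoengseong Yakdak by -0.60 in that fit (limma adjusted p = 0.032). The F test called 293 of 18308 features, 463 with array weights, 188 of 11528 genes with 1 value per gene, and 121 (without Hwangbong bird 2) to 281 with 1 array left out. The shares of all features beside the member counts move likewise: leaving out 1 array gave 24 to 112 calls for Hoengseong Yakdak against White Leghorn (lowest without Hoengseong Yakdak bird 2), 4 to 41 for Hyunin Black (lowest without its bird 3), 40 to 127 for Hwangbong (lowest without its bird 2) and 12 to 42 for Yeonsan Ogye (lowest without its bird 3).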
